A study of Mus musculus with 16 samples.

Results

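The genes described here control how hepatocytes break down and release the fat stored in lipid droplets, and 10 were listed by name: Pnpla2, Abhd5, Lipe, Mgll, Lipa, Lipc, G0s2, Hilpda, Fitm1 and Fitm2. A gene was measured through a transcript cluster, the array's group of probes for 1 transcript unit, and only clusters that the platform annotation assigned to exactly 1 gene were used, taking the cluster with the highest mean where a gene had several. By this rule 8 of the 10 genes had a value, out of 18820 genes with a cluster of their own. The 8 genes exceeded the detection minimum on all 16 arrays, and all 8 were among the 14275 genes tested. Fitm2 was covered only by a cluster that it shares with a second gene, so no value is given for it, and Lipc was not analysed here. On GRCm38.p6 the lipases and the co-activator lie at chr7:141455188-141460743 (Pnpla2), chr9:122351616-122381524 (Abhd5), chr7:25379527-25398486 (Lipe), chr6:88724412-88828360 (Mgll) and chr19:34492316-34527474 (Lipa), and the inhibitors and Fitm1 at chr1:193272160-193273188 (G0s2), chr6:29272488-29275449 (Hilpda) and chr14:55575674-55576952 (Fitm1).

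The livers came from male C57BL/6J mice aged 12 months, 16 in all, with 1 Affymetrix Mouse Gene 1.1 ST array per mouse. From the age of 9 weeks they were fed an intermittent diet (INT) that alternated every week between 40% calorie restriction and a medium-fat diet eaten freely, a calorie-restricted diet (CR, 30% restriction), the medium-fat diet itself (MF, 25% of its energy as fat), or the control diet AIN-93W (C), with 4 mice per diet. After 4 h of fasting each mouse received by gavage WY14,643 (Wy, 160 mg/kg), a synthetic activator of PPARα, or carboxymethyl cellulose alone (mock). Each then fasted for another 6 h, so that every liver in every group came from a fasted mouse. INT mice were killed in a week of free MF feeding. By the study's methods CR mice were given a daily portion at a fixed hour, while C and MF mice ate freely. The time of the last meal before the fast is not given. Within each diet a Wy and a mock mouse of like body weight formed a pair, and there was 1 heavy (high) and 1 light (low) pair per diet, which gave 8 pairs, 8 mice per treatment and 8 per weight class, with 2 mice for each diet and treatment. The labels give weight classes and no weights, and each combination of diet, treatment and weight class was a single mouse.

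Triglyceride in a hepatocyte droplet is cut in steps. Adipose triglyceride lipase (ATGL, encoded by Pnpla2) takes off the first fatty acid once its co-activator CGI-58 (Abhd5) is bound, hormone-sensitive lipase (Lipe) prefers the diglyceride that results, and monoglyceride lipase (Mgll) removes the last fatty acid. G0s2 and Hilpda are small proteins that bind ATGL and inhibit it, lysosomal acid lipase (Lipa) degrades lipid that reaches the lysosome, and the FIT proteins (Fitm1, Fitm2) sit in the endoplasmic reticulum and help new droplets to bud from it. Fitm1 is best known from skeletal muscle and heart. In liver, fatty acids freed by ATGL feed oxidation and also signal through PPARα, which raises the transcription of many genes of fatty acid use during fasting.

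Arrays were alike, with correlations between pairs of arrays from 0.982 to 0.994. Hepatocyte markers such as Alb and Apoa1 were above the detection minimum for 8 of 8 genes. Of the white adipocyte markers 8 of 9 had a cluster. Of these 5 passed the detection minimum (Fabp4, Car3, Cidea, Plin1 and Retn), while Adipoq, Lep and Adig did not. Of the 8 skeletal muscle markers 4 passed (Ckm, Acta1, Tnnt3 and Myl1), while Myh4, Mylpf, Actn3 and Pvalb did not. In these whole-liver samples, fewer cells of a type and less RNA per cell cannot be told apart. The array codes in the labels began alike for 14 arrays and differently for the other 2, from the heavy INT Wy and INT mock mice, and the labels do not say what the codes mark. The arrays are of separate mice, and p-values weigh a change against the spread left between these mice after the terms of each fit. With a single mouse per combination of diet, treatment and weight class, that spread does not come from replicates of a combination.

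The bases before the start sites of the lipase, its co-activator and its inhibitors are printed because the lipase-to-inhibitor values given further on rest on these 4 genes and because all 4 were higher after the PPARα agonist. The sequences are the 250 bases upstream of each gene's outermost start site in RefSeq on GRCm38.p6, read 5′ to 3′ on the gene's strand, and all 8 measured genes matched an entry. Capitals mark AGGTCA, the half-site that nuclear receptors of this kind read, and GGGCGG, the GC box, on either strand. The regions are chr7:141454938-141455187 (plus strand) for Pnpla2, chr9:122351366-122351615 (plus strand) for Abhd5, chr1:193273189-193273438 (minus strand) for G0s2 and chr6:29272238-29272487 (plus strand) for Hilpda.
Pnpla2: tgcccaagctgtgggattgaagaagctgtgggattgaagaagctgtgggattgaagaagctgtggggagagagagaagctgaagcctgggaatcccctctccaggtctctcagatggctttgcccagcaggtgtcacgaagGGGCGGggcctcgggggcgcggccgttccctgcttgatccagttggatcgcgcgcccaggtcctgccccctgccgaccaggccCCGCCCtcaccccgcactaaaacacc
Abhd5: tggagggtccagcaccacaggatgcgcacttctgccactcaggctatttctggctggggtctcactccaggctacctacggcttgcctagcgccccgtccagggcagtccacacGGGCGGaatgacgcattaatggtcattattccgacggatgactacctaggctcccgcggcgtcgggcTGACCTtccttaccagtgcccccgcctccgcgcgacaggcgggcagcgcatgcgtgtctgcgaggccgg
G0s2: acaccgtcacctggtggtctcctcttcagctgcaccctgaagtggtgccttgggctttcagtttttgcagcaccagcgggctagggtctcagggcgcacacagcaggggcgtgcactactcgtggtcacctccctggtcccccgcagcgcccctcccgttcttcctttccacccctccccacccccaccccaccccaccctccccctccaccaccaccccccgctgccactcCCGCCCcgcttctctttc
Hilpda: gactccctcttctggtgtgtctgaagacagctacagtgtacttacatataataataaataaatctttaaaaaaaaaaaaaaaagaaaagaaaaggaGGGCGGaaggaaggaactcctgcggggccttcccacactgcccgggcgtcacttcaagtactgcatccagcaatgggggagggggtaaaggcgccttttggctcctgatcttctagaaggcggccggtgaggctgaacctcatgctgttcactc
AGGTCA was present in the Abhd5 sequence alone, once, read on the opposite strand as TGACCT, and in 1 of the 11 upstream windows held for the 8 genes, against 14.0% of 32851 windows of the same length in all genes. GGGCGG was present in 6 of the 11 windows and in 32.7% of all windows. The tandem arrangement on which PPARα binds with its partner, searched as AGGTCANAGGTCA and more loosely as AGGNCANAGGNCA on both strands, was in none of the 11 windows and in 0.0335% and 0.338% of all windows. Letters absent from these 250 bases say nothing of binding elsewhere in the genes. Neither AGGTCA nor GGGCGG was in the windows of Fitm1 and Lipa.

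To see whether lipases and their inhibitors moved together after PPARα activation, Wy and mock mice were compared within the 8 pairs. The 2 ATGL inhibitors had the largest rises of the 8 genes, 5.28-fold for Hilpda and 3.66-fold for G0s2, while ATGL itself (Pnpla2) rose 1.93-fold. The lipases further down the path rose less, Mgll by 1.75-fold and Lipe by 1.54-fold, and Fitm1 and the co-activator Abhd5 rose 1.36-fold and 1.26-fold. Of the 8 genes 7 rose and 0 fell, and Lipa, the lysosomal enzyme, did not pass the test. Over all genes tested 28.3% were called and 12.3% were called higher, at an adjusted p under 0.05 by limma with Benjamini-Hochberg adjustment over the 14275 genes. The median change was 0.72 on the log2 scale over the 8 genes and -0.01 over all genes.

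Hilpda had log2 intensities of 7.07 at the lowest, 7.72 at the median and 9.08 at the highest in Wy livers, against 5.05, 5.35 and 5.85 in mock livers. The ranges did not overlap, and the highest Wy value belonged to the high MF mouse. The change was 2.40 ± 0.15 (SE, log2, 8 pairs, adjusted p = 2.22e-06), positive in 8 of 8 pairs and between 1.59 in the low INT pair and 3.23 in the high MF pair. G0s2 ran from 10.87 over a median of 11.09 to 11.51 in Wy livers, against 8.21, 9.47 and 10.12 in mock livers, again with no overlap. Its change was 1.87 ± 0.18 (adjusted p = 2.12e-05) and positive in 8 of 8 pairs. Pnpla2 ran from 10.98 over 11.24 to 11.48 in Wy livers, against 9.92, 10.31 and 10.60 in mock livers, also with no overlap. Its change of 0.95 ± 0.07 (limma, adjusted p = 4.77e-06) was positive in 8 of 8 pairs and the most even of these 3, from 0.72 to 1.27. How many of all genes tested had ranges without overlap was not counted.

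**Figure D1:**
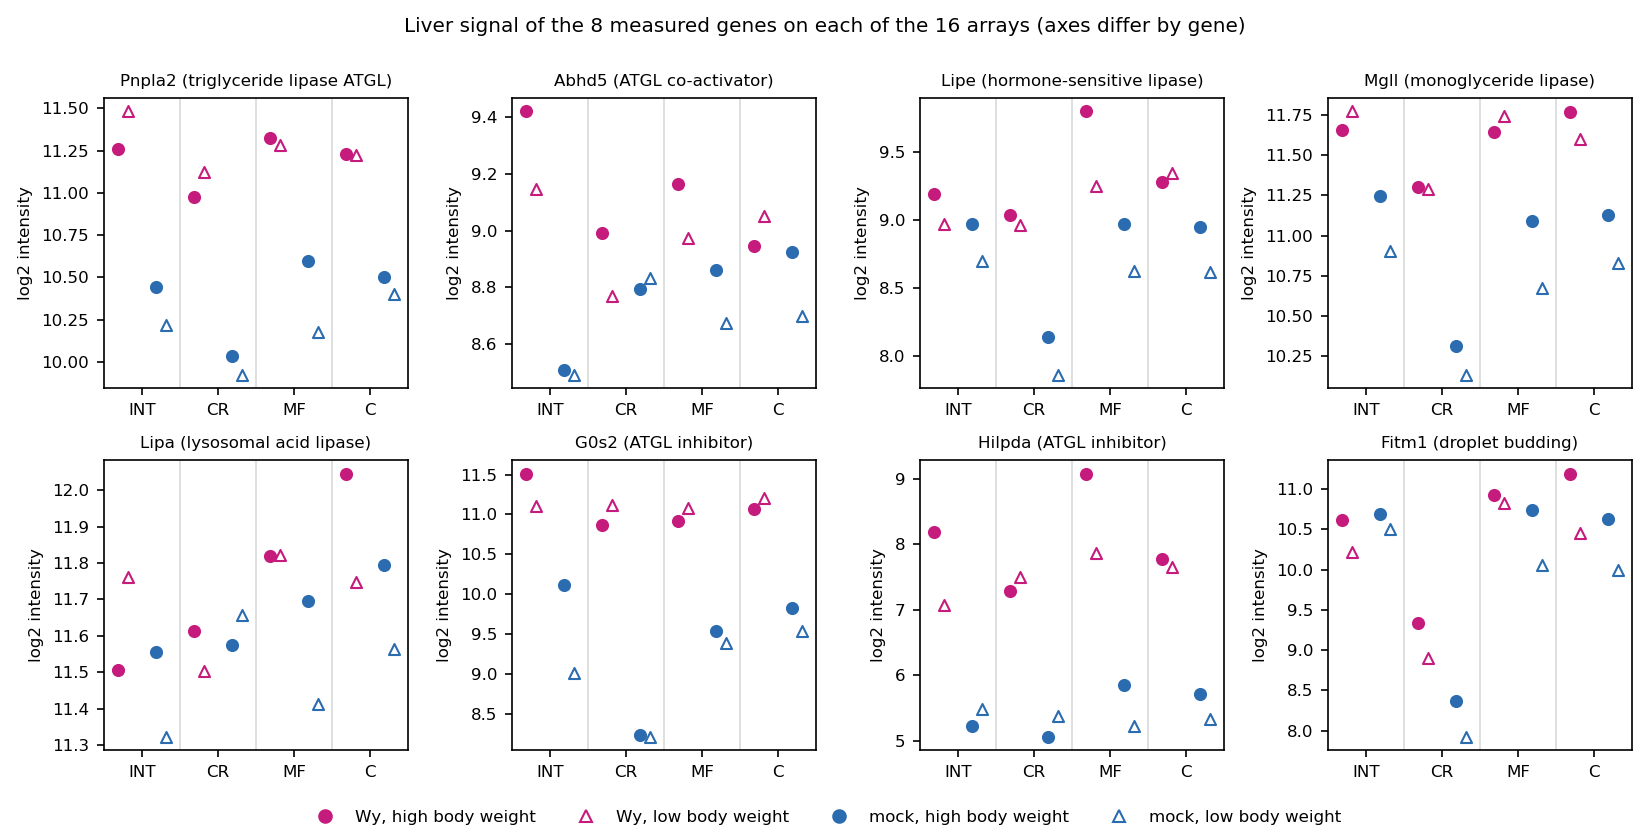
Log2 intensity of each of the 8 measured genes on the 16 arrays, with diets on the horizontal axis, Wy mice (pink) left of mock mice (blue) within each diet, circles for high and triangles for low body weight, and 1 point per mouse. Wy points of Hilpda, G0s2, Pnpla2 and Mgll lie above every mock point of the same gene, with G0s2 mock values of CR mice at 8.25 and 8.21. The 4 CR values of Fitm1 lie at 9.34 or below while all others lie at 10.00 or above.

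Mgll ran from 11.29 over 11.65 to 11.77 in Wy livers, against 10.13, 10.87 and 11.24 in mock livers, again with no overlap. It rose by 0.81 ± 0.08 (SE, log2, limma, adjusted p = 3.46e-05) in 8 of 8 pairs. Lipe ran from 8.96 over 9.22 to 9.80 in Wy livers, against 7.86, 8.66 and 8.97 in mock livers, so that the ranges overlapped only at their edges. It rose by 0.63 ± 0.10 (adjusted p = 0.000655) in 8 of 8 pairs, most in CR (0.90 and 1.11 in the high and low pair) and least in INT (0.22 and 0.27). A second, dimmer cluster of Lipe rose by 0.26 ± 0.07 (adjusted p = 0.0124). White adipocyte markers moved too: of the 5 that were tested, Fabp4, Cidea and Plin1 were higher with Wy and 0 lower, while the summed intensity of the 8 measured markers ranged from 4946 to 10296 in Wy livers and from 6358 to 9371 in mock livers. Car3, which hepatocytes also express, made up 83.6 to 97.6% of that sum over the 16 arrays, and the other 7 markers together ranged from 249 to 1690 in Wy livers and from 218 to 798 in mock livers. Cidea is not a marker of adipocytes alone, and the study measured it in liver as a gene of lipid droplet formation. The part of these markers in the Lipe result was not tested.

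Abhd5 ran from 8.77 over 9.02 to 9.42 in Wy livers, against 8.49, 8.75 and 8.93 in mock livers, and its groups overlapped. It rose by 0.33 ± 0.10 (SE, log2, adjusted p = 0.0235) in 7 of 8 pairs. The high and low INT pairs had the largest changes, 0.91 and 0.66, and the other 6 pairs lay between -0.07 and 0.35. Without the low INT pair the adjusted p was 0.0623. Fitm1 rose by 0.44 ± 0.14 (adjusted p = 0.0324) in 6 of 8 pairs. Its changes were 0.96 and 0.98 in the high and low CR pair, 0.19 and 0.77 in MF and 0.57 and 0.45 in C, but -0.08 and -0.30 in INT. This call rested on single pairs, since leaving out any 1 array of the high or low C, high or low CR or low MF pair moved its adjusted p to between 0.0645 and 0.0824. Lipa changed by 0.16 ± 0.07 (adjusted p = 0.117), was higher with Wy in 6 of 8 pairs, and passed (adjusted p = 0.0475) only without a mouse of the low CR pair.

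**Figure D2:**
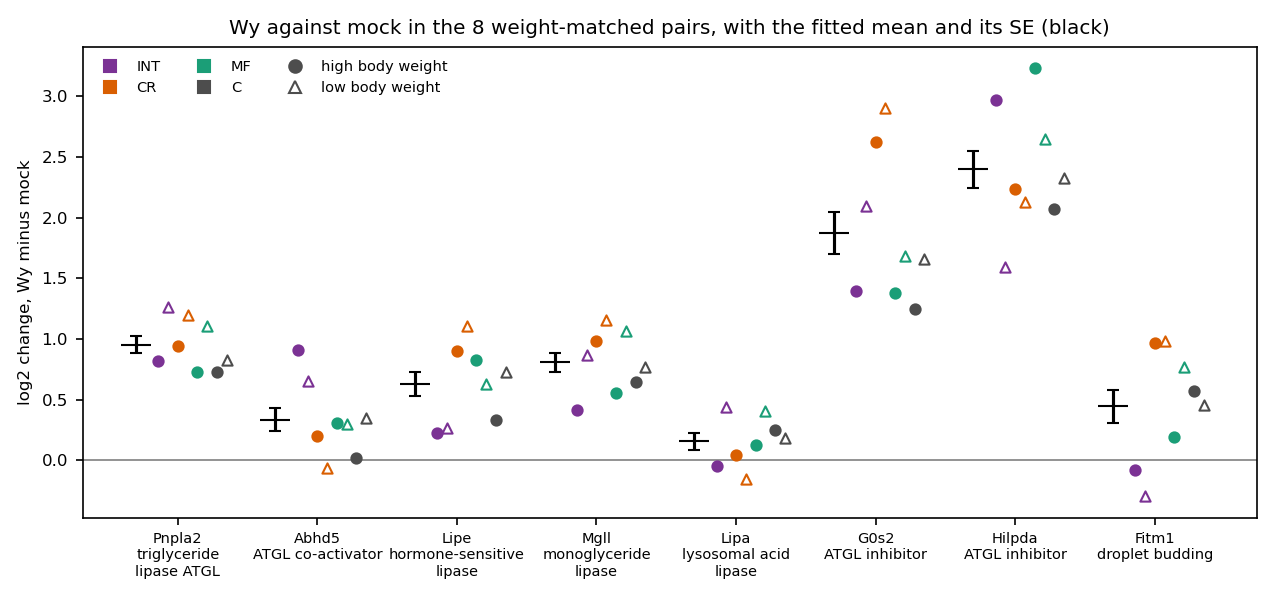
Log2 change of each gene between the Wy and the mock mouse in each of the 8 pairs (colour for diet, circles for high and triangles for low body weight), with the fitted mean and its SE in black. All 8 points of Hilpda, G0s2, Pnpla2, Mgll and Lipe lie above 0, the 2 highest G0s2 points (2.62 and 2.90) are the CR pairs, and both INT points of Fitm1 lie below 0.

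G0s2 changed most in CR, the diet with the lowest mock levels. In Wy livers it was at 11.51 and 11.11 in INT, 10.87 and 11.12 in CR, 10.92 and 11.08 in MF and 11.07 and 11.20 in C (high and low body weight in turn). In mock livers the same order gave 10.12 and 9.01 in INT, 8.25 and 8.21 in CR, 9.54 and 9.40 in MF and 9.83 and 9.54 in C. The diets overlapped in Wy livers, whereas the 2 CR livers were at the bottom of the mock livers. Wy raised G0s2 by 2.62 and 2.90 in CR, and no pair on another diet gained more than 2.09 or less than 1.24. The difference of the Wy effect between CR and C was 1.31 ± 0.26 (SE, log2), with an unadjusted p of 0.000871 by limma and an adjusted p of 1.00 over all genes, so it did not pass. The test for any difference of the Wy effect between diets called 0 of 14275 genes (0%), with 669 at an unadjusted p under 0.05; among the 8 genes Fitm1, G0s2, Lipe and Abhd5 had unadjusted p-values of 0.00247, 0.00298, 0.0126 and 0.0133 and adjusted p-values from 0.947 to 0.997.

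To set lipase against inhibitor, the log2 intensity of the inhibitor was subtracted from that of the lipase or co-activator on each array. The size of such a balance depends on the probes and has no meaning by itself, so it is read only between arrays, and as a derived value it is given without a test. Pnpla2 minus G0s2 averaged 0.13 ± 0.21 in Wy livers and 1.05 ± 0.50 in mock livers (SD, n = 8 each). It was lower with Wy in 8 of 8 pairs, by 0.92 ± 0.49 on average (SD), with changes of -1.68 and -1.70 under CR and from -0.52 to -0.84 under the other diets. The CR mock livers stood apart from the other mock livers at 1.79 and 1.71, against 0.32 to 1.20 elsewhere, while in Wy livers CR lay at 0.11 and 0.00 inside the range of -0.25 to 0.40. Pnpla2 minus Hilpda averaged 3.43 ± 0.61 in Wy livers and 4.88 ± 0.22 in mock livers (SD, n = 8 each), and was lower with Wy in 8 of 8 pairs, by 1.45 ± 0.67. The fall averaged -1.82 in the 4 high pairs and -1.08 in the 4 low pairs, from -2.50 in the high MF pair to -0.33 in the low INT pair. Abhd5 minus G0s2 averaged -2.05 ± 0.18 in Wy livers and -0.52 ± 0.75 in mock livers, lower with Wy in 8 of 8 pairs. Here the CR mock livers were at 0.55 and 0.62, and the other 6 mock livers were lower, from -1.61 to -0.52.

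**Figure D3:**
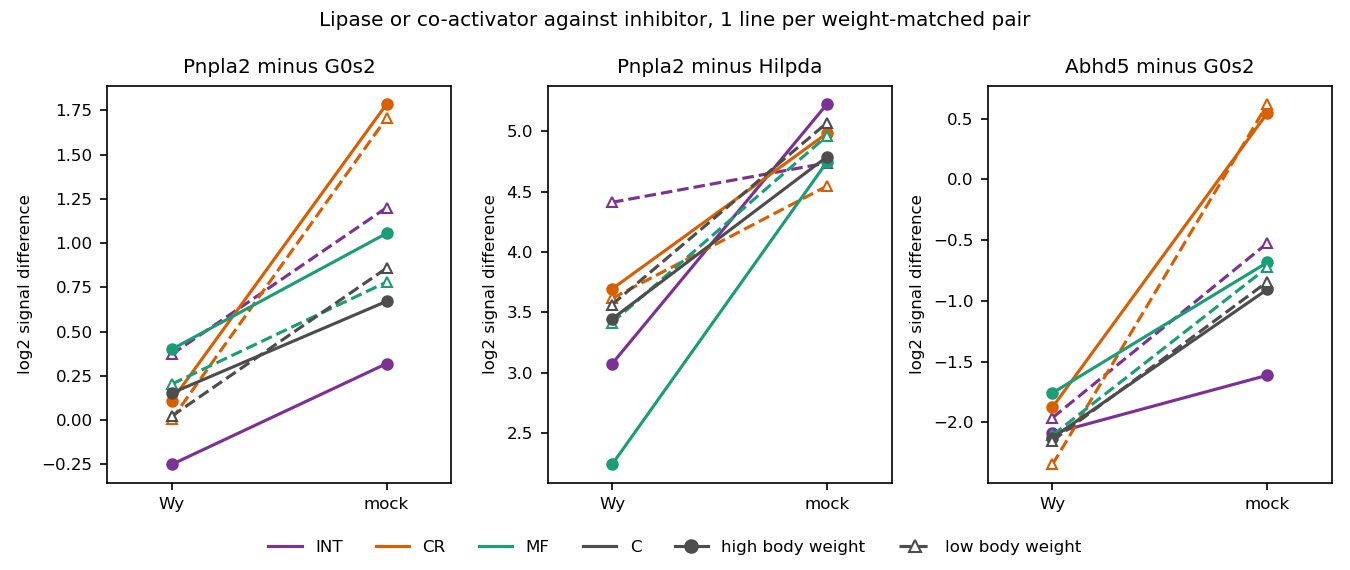
Log2 intensity of Pnpla2 or Abhd5 minus that of an ATGL inhibitor in Wy (left) and mock (right) mice, 1 line per weight-matched pair, colour for diet, solid for high and dashed for low body weight. Every line is lower on the Wy side, and the CR mock values of Pnpla2 minus G0s2 (1.79 and 1.71) lie above those of the other diets.

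Genes around this path were taken from lists of related function. Among 19 tested neutral lipid hydrolases other than the 8 genes, 3 rose and 4 fell with Wy, where 12.3% of all genes rose and 16% fell. They were led by Ddhd2, a triglyceride and phospholipid hydrolase (1.32 ± 0.09), Abhd6, a monoglyceride hydrolase (1.02 ± 0.10), Pnpla8, a phospholipase (0.32 ± 0.04), and Pnpla6, a lysophospholipase (-0.69 ± 0.06, all SE, log2). Of the 5 droplet coat proteins, the perilipins, 4 rose and 1 fell. Plin5, which brings ATGL and Abhd5 to the droplet in oxidative tissues, rose by 1.47 ± 0.13, Plin2, the main coat protein of hepatocyte droplets, by 0.90 ± 0.08 and Plin4 by 0.51 ± 0.14, while Plin3 fell by 0.42 on the log2 scale. Of 19 genes of droplet assembly 3 rose and 0 fell, with Hsd17b11, a droplet-bound dehydrogenase, at 0.70 ± 0.07, Bscl2 (seipin) at 0.19 and the coat subunit Copb1 at 0.18. Of 12 vascular lipases and regulators 2 rose and 1 fell. These were Angptl4, an inhibitor of lipoprotein lipase (0.65 ± 0.05), endothelial lipase Lipg (0.62 ± 0.14) and Angptl8 (-0.86 ± 0.14). Of 12 genes of lysosomal lipid handling 2 rose and 3 fell, with the sphingomyelinase Smpd1 at -0.35 ± 0.05, the cholesterol exporter Npc1 at -0.34 ± 0.08 and Scarb2, a lysosomal membrane receptor, at 0.25 ± 0.05. The median changes of the 5 lists were -0.10, 0.51, 0.04, 0.02 and -0.07 in the order given, against -0.01 over all genes.

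Diets were then compared over Wy and mock mice together, with treatment and weight class as terms. CR lowered 4 of the 8 genes against C and raised 0. Over all genes 10.5% were called in this comparison and 5.98% were called lower. Fitm1 had by far the largest change, 3.83-fold lower in CR, and the lipase genes Mgll, Lipe and Pnpla2 were 1.48-fold, 1.46-fold and 1.25-fold lower. The median change was -0.44 over the 8 genes and -0.01 over all genes.

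Fitm1 was at 9.34 and 8.90 in CR Wy livers and at 8.38 and 7.92 in CR mock livers (high and low body weight), against 11.19 and 10.46 in C Wy livers and 10.63 and 10.00 in C mock livers. No CR value reached any value of another diet. The CR minus C change was -1.94 ± 0.18 (SE, log2, adjusted p = 7.84e-05), negative in 4 of 4 matched comparisons. Skeletal muscle markers, the tissue for which Fitm1 is known, had summed intensities of 196 to 218 in CR livers and 198 to 205 in C livers, and 0 of the 4 tested were called between CR and C by limma. Mgll was at 11.30 and 11.29 in CR Wy livers and 10.32 and 10.13 in CR mock livers, against 11.77 and 11.60 in C Wy livers and 11.13 and 10.83 in C mock livers, a change of -0.57 ± 0.11 (adjusted p = 0.00409). It was lower in CR in 4 of 4 matched comparisons.

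Lipe was at 9.04 and 8.96 in CR Wy livers and 8.14 and 7.86 in CR mock livers, against 9.28 and 9.35 in C Wy livers and 8.95 and 8.62 in C mock livers. Its change was -0.55 ± 0.13 (SE, log2, adjusted p = 0.0185), and the call was lost (adjusted p up to 0.0645) without the high C mock, the high or low CR mock or the low C Wy mouse. The dimmer Lipe cluster changed by -0.29 ± 0.09 (adjusted p = 0.0678). Of the 5 white adipocyte markers tested Cidea and Car3 were called lower in CR and 0 higher. Their sum, nearly all of it Car3, was 4946 to 7808 in CR livers and 8393 to 9681 in C livers, and without Car3 it was 249 to 337 in CR livers and 265 to 1494 in C livers, and their part in the Lipe and Fitm1 results was not tested. Pnpla2 was at 10.98 and 11.12 in CR Wy livers and 10.03 and 9.92 in CR mock livers, against 11.23 and 11.22 in C Wy livers and 10.50 and 10.40 in C mock livers, a change of -0.33 ± 0.10 (adjusted p = 0.0459). That value was close to the threshold: leaving out 1 array took it past 0.05 for 10 of the 16 arrays (every C mouse, both CR mock mice, the high CR Wy, both MF Wy and the high INT mock mouse), up to an adjusted p of 0.1399, and it was 0.0648 with each array centred on its median. With the weight-matched pair as a random block it was 0.0652 for CR against C, 0.0530 for CR against MF and 0.0593 for INT against CR, so that the Pnpla2 call was lost in all 3.

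G0s2 changed by -0.80 ± 0.26 between CR and C (SE, log2, adjusted p = 0.0646) and did not pass over both treatments together. Its CR minus C differences were -1.58 and -1.33 in the mock mice of high and low body weight and -0.21 and -0.09 in the Wy mice. Abhd5, Lipa and Hilpda changed by -0.06 ± 0.12, -0.20 ± 0.10 and -0.32 ± 0.25, with adjusted p-values of 0.822, 0.214 and 0.481. Without the low CR Wy mouse, or without the high INT mock mouse, G0s2 passed, at adjusted p-values of 0.0122 and 0.0475.

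Because CR differences looked unlike in the Wy and mock arms, a comparison within each arm was added after the values had been seen, with the spread taken from all 16 arrays. Within Wy livers 1.12% of all genes were called between CR and C, and 1 of the 8 genes was, Fitm1 at -1.71 ± 0.15 (SE, log2, adjusted p = 0.00136). Within mock livers 2.08% were called, and 4 of the 8 genes were lower in CR. These were Fitm1 at -2.17 ± 0.15 (adjusted p = 0.000376), G0s2 at -1.46 ± 0.26 (0.0238), Lipe at -0.78 ± 0.13 (0.0173) and Mgll at -0.75 ± 0.14 (0.0239), while Pnpla2 was at -0.47 ± 0.14 (0.111). When the mock arrays were fitted with their own spread, only 0.063% of all genes were called. The Fitm1 call alone was then left of these 4, with adjusted p-values of 0.103 for G0s2, 0.0554 for Lipe and 0.0617 for Mgll. The corresponding Wy-arm values were -0.15 ± 0.26 for G0s2, -0.31 ± 0.13 for Lipe, -0.39 ± 0.14 for Mgll and -0.18 ± 0.14 for Pnpla2. Passing in one arm and not in the other does not show that the arms differ, and the direct test of that difference, given above for G0s2, passed for 0 of the 8 genes after adjustment.

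**Figure D4:**
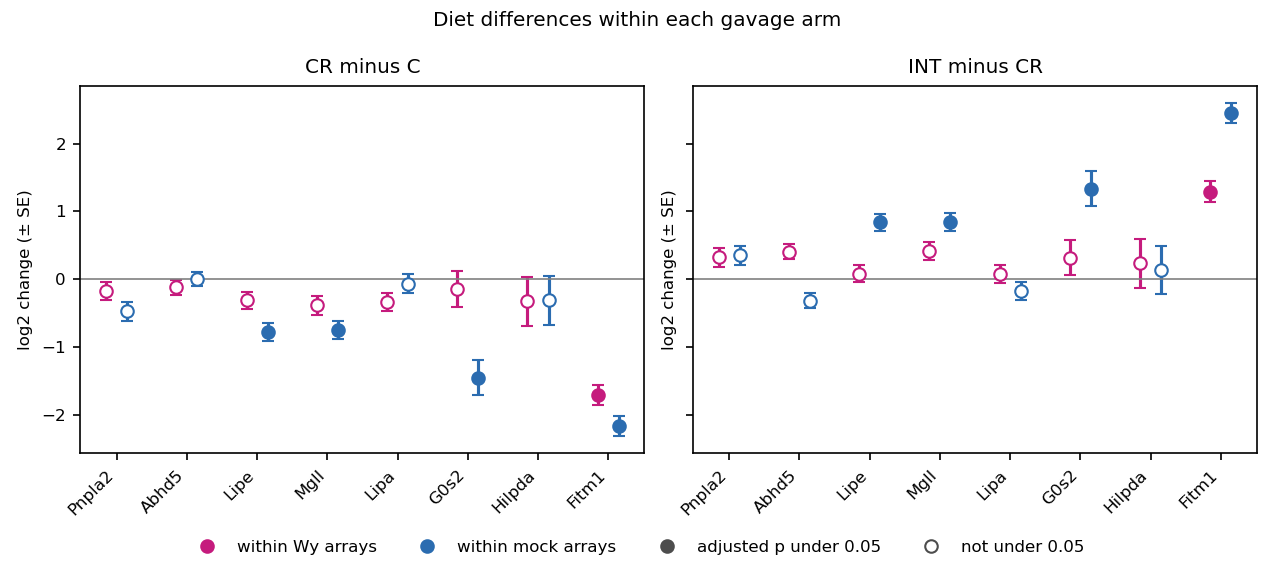
Log2 change ± SE of the 8 genes between CR and C (left) and between INT and CR (right), within Wy arrays (pink) and within mock arrays (blue), with filled points at an adjusted p under 0.05. Fitm1 is filled in both arms of both panels, and G0s2, Lipe and Mgll are filled in the mock arm alone.

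CR was also set against MF. The same 4 genes were lower in CR, with 12.7% of all genes called and 6.87% called lower, at -2.01 ± 0.18 for Fitm1, -0.66 ± 0.13 for Lipe, -0.53 ± 0.11 for Mgll and -0.33 ± 0.10 for Pnpla2 (SE, log2, adjusted p from 5.00e-05 to 0.0373). This comparison uses the same 4 CR mice as the one against C. The dimmer Lipe cluster changed by -0.28 ± 0.09 between CR and MF and did not pass (limma, adjusted p = 0.0625). Of the 5 white adipocyte markers Cidea and Car3 were called lower and 0 higher here as well, and their part was not tested. Pnpla2 again lay close to the threshold, with adjusted p-values up to 0.126 when 1 of 6 arrays was left out (the high CR Wy, both CR mock, both MF Wy and the high MF mock mouse). Hilpda, at -0.70 ± 0.25 with an adjusted p of 0.0876, passed without the low CR mock (0.0494) or the low MF mock mouse (0.0451) but shrank to -0.42 (adjusted p = 0.262) without the high MF Wy mouse, and G0s2 at -0.63 ± 0.26 (adjusted p = 0.132) passed without the low CR Wy mouse (0.0263).

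INT mice, which ate as much as they chose in their last week, were compared with CR mice, the other restricted group. In INT 4 of the 8 genes were higher and 0 lower, with 9.85% of all genes called and 5.57% called higher. Fitm1 was at 10.61 and 10.21 in INT Wy livers and 10.70 and 10.51 in INT mock livers, a change of 1.88 ± 0.18 (SE, log2, adjusted p = 5.50e-05) over the CR values given above. Mgll was higher by 0.63 ± 0.11 (adjusted p = 0.00253), Lipe by 0.46 ± 0.13 (0.0429) and Pnpla2 by 0.34 ± 0.10 (0.0412). The Lipe and Pnpla2 calls were weak. Without the 2 INT arrays of the second code, which left the 2 light INT mice, their changes were 0.46 and 0.38 with adjusted p-values of 0.180 and 0.158. With the code as a term the changes were the same and the adjusted p-values were 0.212 and 0.1497. Only the heavy INT pair carried the second code, so these fits are not separate checks. The code and the heavy INT pair cannot be told apart. Leaving out 1 array lost the Lipe call for 10 of the 16 arrays (both CR mock, both INT mock, both C mock, the high CR Wy, high MF mock, low C Wy and low MF Wy mouse, adjusted p up to 0.139) and the Pnpla2 call for 9 (both CR mock, high CR Wy, high INT mock, low INT Wy, both MF Wy, low C mock and low C Wy mouse, up to 0.115). The dimmer Lipe cluster was at 0.18 ± 0.09 (adjusted p = 0.278). Of the 5 white adipocyte markers tested Car3 alone was called higher, and Car3 carried nearly all of their sum, which was 8552 to 9311 in INT livers and 4946 to 7808 in CR livers. Without Car3 the sum was 218 to 1186 in INT livers and 249 to 337 in CR livers, and the part of these markers in the Lipe and Fitm1 results was not tested. G0s2 changed by 0.83 ± 0.26 (adjusted p = 0.0597) and passed without the low CR Wy (0.0128) or the low INT mock mouse (0.0478).

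Within the arms, 1.23% of all genes were called between INT and CR in Wy livers and 3.43% in mock livers. Fitm1 was higher in INT in both, by 1.29 ± 0.15 in Wy livers and 2.46 ± 0.15 in mock livers (SE, log2). In mock livers G0s2 (1.34 ± 0.26), Mgll (0.85 ± 0.14) and Lipe (0.84 ± 0.13) were called higher as well, at adjusted p-values from 0.0105 to 0.0234. With the mock arrays' own spread, a fit that called 0.462% of all genes, G0s2 was at an adjusted p of 0.0935. Abhd5 went opposite ways in the arms, at 0.40 ± 0.11 in Wy livers and -0.32 ± 0.11 in mock livers, and passed in neither (adjusted p of 0.121 and 0.149).

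None of the 8 genes was called among INT, MF and C. INT against C called 0.00701% of all genes, and INT against MF and MF against C called 0% each, with 1405, 1629 and 628 genes at an unadjusted p under 0.05 by limma. Fitm1 differed by -0.06 ± 0.18 and Pnpla2 by 0.01 ± 0.10 between INT and C (SE, log2), and the change with the smallest p was that of Lipa, -0.25 ± 0.10 (adjusted p = 0.454). In the related lists, the CR minus C comparison called 1 hydrolase higher and 4 lower of 19, where 4.54% of all genes were higher and 5.98% lower. These were led by Daglb, a diglyceride lipase (-0.57 ± 0.09), Pnpla3, a droplet-bound acyl hydrolase (1.58 ± 0.26), the carboxylesterase Ces3a (-1.12 ± 0.25) and Abhd12, a lysophospholipid and monoglyceride hydrolase (-0.43 ± 0.10). Of the coat proteins 0 of 5 were called in either direction, of droplet assembly 2 were higher and 1 lower of 19, of the vascular list 0 higher and 1 lower of 12, and of the lysosomal list 0 of 12. Between INT and CR 5 of the 19 hydrolases were higher and 1 lower, where 5.57% of all genes were higher and 4.28% lower, with Pnpla3 at -2.06 ± 0.26 and Ces3a at 1.23 ± 0.25.

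Body weight class was compared over diets and treatments. None of the 8 genes passed, in a comparison that called 0 of 14275 genes (0%) by limma and had 2000 at an unadjusted p under 0.05, Fitm1 and Lipe among them. Fitm1 was higher in the heavy mouse in 8 of 8 matched comparisons, by 0.45 ± 0.13 (SE, log2, unadjusted p = 0.00371, adjusted p = 0.194), with differences from 0.10 to 0.74. Lipe was higher in 7 of 8, by 0.25 ± 0.09 (adjusted p = 0.266), Hilpda in 5 of 8, by 0.33 ± 0.18 (0.424), and Pnpla2 in 6 of 8, by 0.07 ± 0.07 (0.681). Hilpda differed most in Wy livers of INT and MF, at 1.12 and 1.21, and was lower in the heavy mouse in Wy and mock livers of CR and in mock livers of INT.

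Heavy and light mice were then set against each other within C and MF and within CR and INT. In C and MF, where 7.39% of all genes were called, 0 of the 8 genes were, and 2 of the 8 had an unadjusted p under 0.05 by limma, as did 3320 of the 14275 genes. Hilpda was at 0.59 ± 0.22 and Fitm1 at 0.54 ± 0.19 (SE, log2, adjusted p of 0.124 and 0.121), with Hilpda at 0.35 without the high MF Wy mouse, and Pnpla2, G0s2 and Abhd5 were at 0.14 ± 0.10, 0.04 ± 0.25 and 0.13 ± 0.14. Macrophage markers moved in the same comparison, with Gpnmb, Trem2 and Cd68 higher and Timd4 lower of 9 tested. So did Cidea, 1 of 5 tested in the adipocyte list, and the endothelial marker Pecam1, 1 of 8. The study counts Cidea among genes of lipid droplet formation in liver, and reports a positive correlation of its Q-PCR level with body weight. The macrophage markers summed to 5212, 5176, 3563 and 4398 in the heavy C Wy, C mock, MF Wy and MF mock mice, against 3501, 3397, 3748 and 3303 in the light ones. The part of these markers in the values of the 8 genes was not tested. Of the coat proteins 2 of 5 passed, where 4.67% of all genes were higher and 2.72% lower, with Plin4 at 1.64 ± 0.20 and Plin3 at 0.71 ± 0.10 (adjusted p of 0.00214 and 0.00438), whereas 0 hydrolases were higher and 2 lower (Ces3b at -0.75 ± 0.15, Ces2a at -0.79 ± 0.17). Droplet assembly had 2 higher, Hsd17b13 and Lpcat2, the vascular list 1, lipoprotein lipase Lpl at 1.00 ± 0.27, and the lysosomal list 2, Ctsd and Lamp1, with none lower in these 3 lists. In CR and INT 0% of genes were called, with 679 at an unadjusted p under 0.05, and none of the 8 genes differed by more than 0.37 ± 0.19, the value of Fitm1. The difference between these 2 weight effects was tested directly by limma, which called 0.855% of all genes and 0 of the 8. Hilpda was at 0.51 ± 0.30 (adjusted p = 0.503) and Fitm1 at 0.17 ± 0.28 (0.857).

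**Figure D5:**
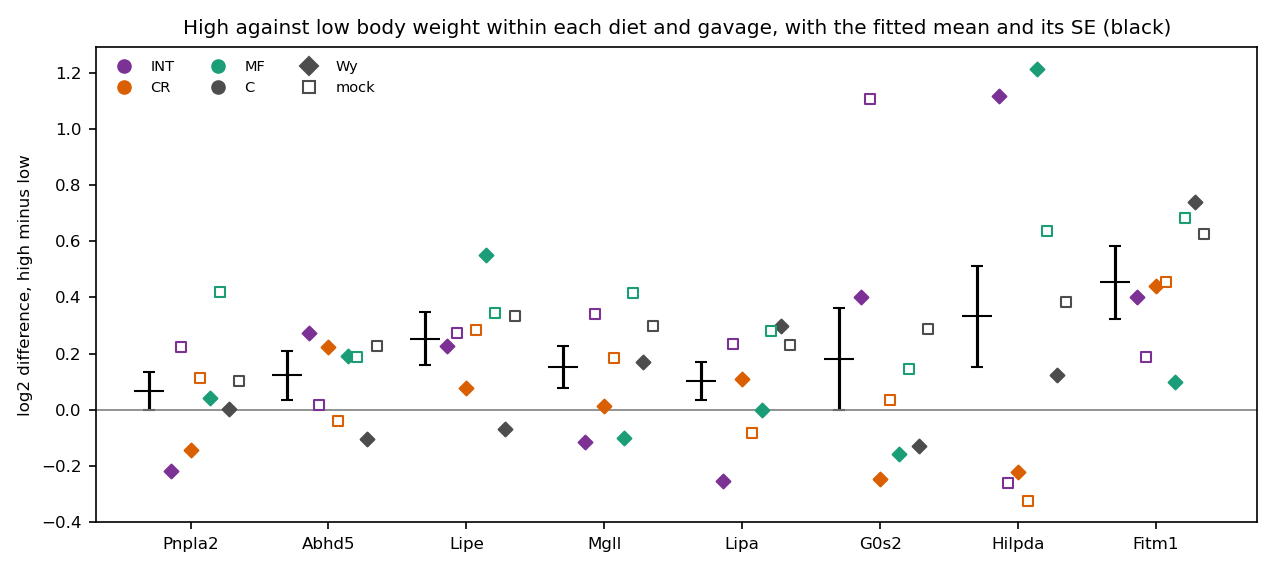
Log2 difference between the mouse of high and the mouse of low body weight within each diet and treatment (diamonds for Wy, open squares for mock, colour for diet), with the fitted mean and its SE in black. All 8 Fitm1 points lie above 0, from 0.10 to 0.74, and Hilpda spreads from -0.32 to 1.21.

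Whether weight class altered the Wy effect was tested directly. The test called 0 of all genes (0%), with 673 at an unadjusted p under 0.05. The Wy change in high minus that in low pairs was -0.29 ± 0.11 for Pnpla2 and -0.32 ± 0.14 for Mgll (SE, log2, unadjusted p of 0.0266 and 0.0451, adjusted p of 0.999 for both), and 0.45 ± 0.29 for Hilpda (unadjusted p = 0.146).

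Among themselves the 8 genes varied differently over the 16 arrays. As a description, over arrays that share diets and treatments, Pnpla2 had its highest correlations with G0s2 (Pearson r = 0.954) and Mgll (0.945), and Fitm1 its highest with Lipe (0.778) and Mgll (0.723). Within the 8 Wy arrays Pnpla2 and G0s2 had r = 0.267 and within the 8 mock arrays 0.875. In the mock arrays r was 0.983 for Lipe and Mgll and 0.982 for Lipe and Fitm1, and the CR mice had the lowest mock values of each of these genes. In the Wy arrays the same r were 0.344 and 0.657. Predicted gene models, Riken clones and similar unnamed loci were skipped in the search for the closest genes. Of the other genes tested, Synj2, Rtf2 and Rab30 were closest to Pnpla2 (r = 0.981, 0.979 and 0.975 over 16 arrays), Fam20b, Elmod3 and Efnb1 to G0s2 (0.968, 0.966 and 0.962), and Asap1, Slc35c1 and Synpo to Hilpda (0.974, 0.972 and 0.966). Them7, Csrp3 and Mpdu1 were closest to Fitm1 (0.956, 0.946 and 0.943). Their r with Fitm1 ran from 0.940 to 0.973 in Wy arrays and from 0.953 to 0.958 in mock arrays. These genes were picked on the same arrays, and in each arm the CR mice had the lowest Fitm1 values, so the r within arms are no separate evidence. The r of Fam20b with G0s2 was 0.305 in Wy arrays and 0.962 in mock arrays.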

How the data were processed

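The authors summarised each array with robust multi-array averaging (RMA, version not given in the sources used here), and the deposited values are log2 intensities per transcript cluster. RMA makes array distributions alike and compresses low signals, so the fold change of a dim gene, such as Hilpda in mock livers, can be understated. Of 35556 clusters, 21218 had 1 gene in the platform annotation, 1881 several and 12457 none or no entry. Genes entered the tests with an intensity over 20 on at least 5 arrays, the minimum of the study's methods. The number of arrays limits the precision.

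The tests were run on log2 values in R 4.3.3 and limma 3.58.1 with Benjamini-Hochberg adjustment over the 14275 genes, and a call is an adjusted p under 0.05. Wy and mock were fitted with the weight-matched pair as a block, since the labels state the pairing. Deviations of paired mice from their group means correlated across genes at 0.531 in C, 0.564 in MF, 0.0839 in INT and -0.169 in CR. Diets were fitted with treatment and weight class as terms, body weight with diet and treatment as terms, and interactions as added terms. The fits were tested on simulated data.

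The members and related gene lists were chosen with earlier results of these data known. Text names all members, up to 4 genes of a list with the smallest p in a comparison, and the 3 genes most correlated with Pnpla2, G0s2, Hilpda and Fitm1. Among the correlated genes, predicted gene models, Riken clones and similar unnamed loci were skipped. The other named marker and list genes were named after their values were seen. Alternatives were other filters, centring, moderation, clusters, array codes, treatment arms and pairing, and leaving out each array. The comparisons within the Wy and mock arms were chosen after seeing the data.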

Additional observations from a re-analysis of the deposited data

Results flagged for a closer look

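Groups of 8 values were examined for a single array that stood apart (Wy arrays, mock arrays and Wy minus mock changes of each of the 8 genes, 24 groups). The Lipe level of the high MF Wy mouse, 9.80 on the log2 scale, stood apart from the other Wy arrays, whose highest was 9.35 and whose lowest was 8.96, by a gap of 0.541 of the range of the 8 values, above Dixon's critical value for 8 samples. Chance marks about 1 in 20 such groups, and 1 of 24 was marked here.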

How the results depend on the processing

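With no pair block, 7 of the 8 genes were called between Wy and mock mice, as with it, and no single call changed. That fit called 27.2% of all genes. The diet calls depended more on the setting, from 4 in each comparison against CR. The main fits called 10.5% of all genes for CR against C, 12.7% for CR against MF and 9.85% for INT against CR. Between INT and CR 2 genes were called with the 14 arrays of the first code only (2.65% of all genes) and 2 with the code as a term (2.35%). With the matched pair as a random replicate block (correlation 0.0741) 2 were called between INT and CR. That block left 3 in CR against C (8.43% of all genes) and 3 in CR against MF (10.3%). With mock arrays only, 1 gene was called between CR and C (0.063% of all genes), 1 between CR and MF (0.0701%) and 3 between INT and CR (0.462%). With Wy arrays only, 1 was called in each of CR against C (0.932%), CR against MF (1.38%) and INT against CR (0.995%). Calls thus fell over all genes in these fits, not in the 8 genes alone. Within Wy arrays, with the spread of all 16 arrays, the same 3 comparisons again had 1 call each. Over all genes 1.12% were called there for CR against C and 1.23% for INT against CR. Leaving out 1 array gave 6 to 7 calls for Wy, 2 to 5 for CR against C, 3 to 5 for CR against MF and 2 to 5 for INT against CR. Of 497 alternatives of the 19 called results, 401 kept their direction and call, 96 lost the call and 0 turned; of 2119 alternatives of the 85 uncalled results, 14 passed and 140 changed sign without a call. G0s2 passed between CR and C on the arrays of the first code (adjusted p = 0.0498) and with the code as a term (0.0469). Both fits gave the same change of -0.80 and are not separate checks. Fitm1 missed between Wy and mock with a trended, robust variance (adjusted p = 0.0511). Body weight within CR and INT was not run on the arrays of the first code, and body weight splits were not run with the code as a term, in a single arm or with a random block. Single mice per combination of diet, treatment and weight limit what could be detected.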
